A study of Mus musculus with 6 samples.

Results

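Cd24a and Lrrn1 are the genes whose RNA differed most toward TNE cells in this series. They are 2 of 9490 genes compared, taken by symbol from a table of 10361 rows, and each had 1 row and 1 gene symbol in the array's annotation. They were chosen because of that difference, so their levels in the 2 groups are given as a description and carry no test. The cells were cancer stem-like cells from prostates of TRAMP mice, a strain in which a viral oncogene under a prostate-specific promoter gives rise to prostate tumours. The 3 TPIN samples came from mice aged 10 to 11 weeks with intraepithelial neoplasia. The 3 TNE samples came from mice with neuroendocrine tumours, whose age the labels do not give. The free description of the TNE samples names intraepithelial neoplasia as well, and groups follow the title and cell type labels. All 6 samples were grown without serum, with EGF and FGF2, so none of them shows the tissue as it was in the animal. No label says that samples within a group are from different animals or cultures, and p-values therefore measure only the spread between these samples. Arrays are called TPIN 1 to TPIN 3 and TNE 1 to TNE 3 by group and replicate number. Values are log2 expression after RMA, on which 1 unit is a 2-fold difference, and each is RNA and not protein at the surface.

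CD24 is a very short, heavily glycosylated protein that a lipid (GPI) anchor holds in the outer leaflet of the cell membrane. It is best known on immature B cells, granulocytes, neural progenitors and epithelial cells, where it binds P-selectin and Siglec receptors, and on tumour cells it can act as a signal against being engulfed by macrophages. Having no part inside the cell, it signals through Src family kinases gathered in lipid rafts. LRRN1, also called NLRR-1, is a membrane protein with leucine-rich repeats outside the cell, expressed mainly in the developing nervous system.

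The Lrrn1 promoter is shown because the sequence table from RefSeq (build GRCm38.p6) holds it and because its genes of like pattern, described further on, could be searched for the same short motifs. Cd24a was not matched in that table. The 250 bases before the Lrrn1 start (chr6:107529476-107529725, plus strand) read as follows, with motif matches in capitals.

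Lrrn1: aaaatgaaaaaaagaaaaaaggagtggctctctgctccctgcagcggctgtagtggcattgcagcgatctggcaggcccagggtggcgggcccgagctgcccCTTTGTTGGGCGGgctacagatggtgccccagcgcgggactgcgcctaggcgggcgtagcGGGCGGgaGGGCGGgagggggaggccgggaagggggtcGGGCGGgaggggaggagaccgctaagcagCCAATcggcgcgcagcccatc

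Of these bases 68.0% were G or C, against a median of 52.4% over 32851 promoters of the same length. The motifs were chosen after the sequence was seen and were searched on both strands. A SOX motif (AACAAAG) lay on the minus strand with its first base 148 before the start, directly beside the first of 4 GC boxes (GGGCGG), and a CCAAT box (CCAAT) lay 21 bases before the start. The SOX motif was present in 5.03% of all promoters, the GC box in 32.7% and the CCAAT box in 33.8%. Neither TATAAA, in 12.4% of all promoters, nor CAGCTG, in 13.0%, was found in this window.

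Cd24a went from among the lowest rows of the TPIN arrays to high positions on the TNE arrays. Its value was 4.28, 4.37 and 4.50 in TPIN replicates 1 to 3 and 10.30, 10.10 and 11.76 in TNE replicates 1 to 3. The lowest TNE array lay 5.61 log2 units above the highest TPIN array, so the groups were far from overlapping. The mean was 4.38 ± 0.11 (SD, n = 3) in TPIN and 10.72 ± 0.90 (SD, n = 3) in TNE, a difference of 6.34, or 80.8-fold on this scale. No other row of the table differed more toward TNE, and in absolute size it came second of the 10361 rows. It was also the only row with a difference of at least 5 toward TNE, a size that 21 rows reached toward TPIN. RMA narrows differences near background, and no background level comes with the values, so the TPIN values cannot be read as absence of the RNA.

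Lrrn1 showed the second largest difference toward TNE, with less spread than Cd24a within TNE. Its value was 5.77, 6.11 and 5.48 in TPIN replicates 1 to 3 and 10.61, 10.83 and 10.71 in TNE replicates 1 to 3. All TNE arrays were high and close together, all TPIN arrays were low, and a gap of 4.51 separated the groups. The mean was 5.79 ± 0.31 (SD, n = 3) in TPIN and 10.72 ± 0.11 (SD, n = 3) in TNE, a difference of 4.93, or 30.5-fold. Counting rows that fell in TNE as well, it ranked 25 by absolute difference. The next rows toward TNE were Tspan13 at 4.77, Mboat2 at 4.58 and Shcbp1 at 4.35.

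**Figure D1:**
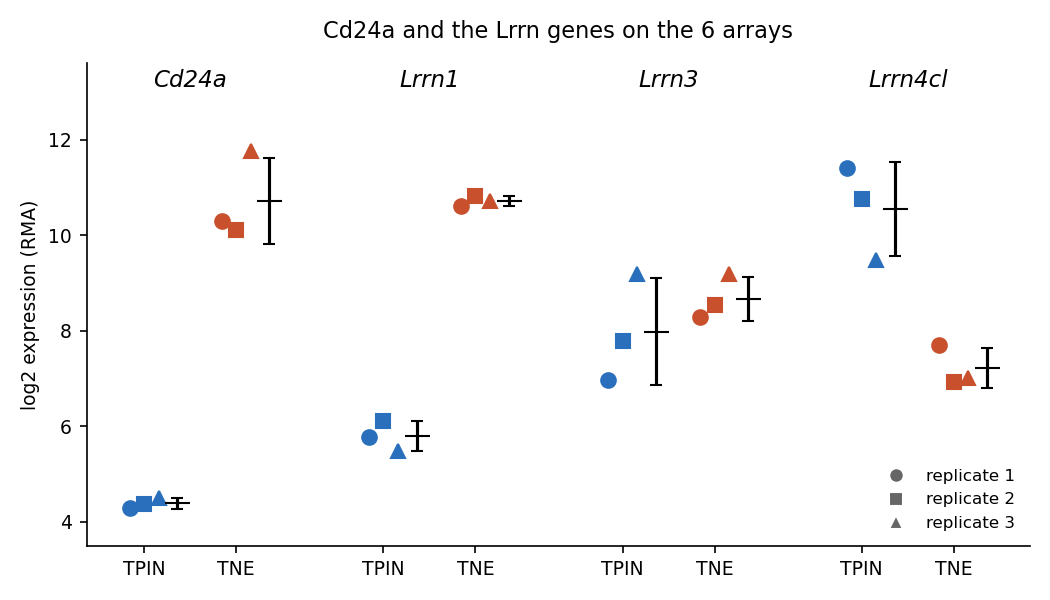
Log2 expression of Cd24a, Lrrn1 and the other measured genes of the Lrrn name group on each array, TPIN in blue and TNE in red, with the marker shape giving the replicate and the black bar the mean ± SD of 3 arrays. Cd24a and Lrrn1 have no overlap between groups, Lrrn3 overlaps, and Lrrn4cl is lower on all 3 TNE arrays.

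The members differed in where their spread lay. Within TPIN, Cd24a varied over 0.21 log2 units, and 94.8% of genes had a larger SD there. Within TNE it varied over 1.66, and only 10.8% of genes had a larger SD. Lrrn1 had its wider range in TPIN, 0.63, where 61.9% of genes still had a larger SD. In TNE its range was 0.21, and 91.5% of genes had a larger SD. The Cd24a difference was 7.01 times the larger of its group SDs and the Lrrn1 difference 15.7 times.

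The spread of Cd24a within TNE came from replicate 3, which stood 1.46 above the next TNE array, a 2.75-fold gap. Such a gap in favour of TNE 3 was reached by 189 genes, 1.99% of those compared. Lrrn1 in TNE 3 lay 0.12 below the highest TNE array. Without TNE 3 the Cd24a difference was 5.82, and the Lrrn1 difference was 4.93. Leaving out any other array kept Cd24a between 6.29 and 6.65, and leaving out any array kept Lrrn1 between 4.78 and 5.09.

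Positions within an array, which do not depend on its scaling, gave the same picture. In TPIN between 0.502% and 0.666% of rows had a lower value than Cd24a, and in TNE 79.8%, 76.1% and 97.4% in replicates 1 to 3. For Lrrn1 the share of lower rows was 2.25% to 4.44% in TPIN and 85.5% to 89.9% in TNE. A row's level also depends on its probes, so these positions compare a gene with itself across arrays and do not say which of the genes had more RNA. Centring each array on its median gave differences of 6.36 for Cd24a and 4.95 for Lrrn1, and a repeated quantile normalization gave 6.42 and 5.09.

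**Figure D2:**
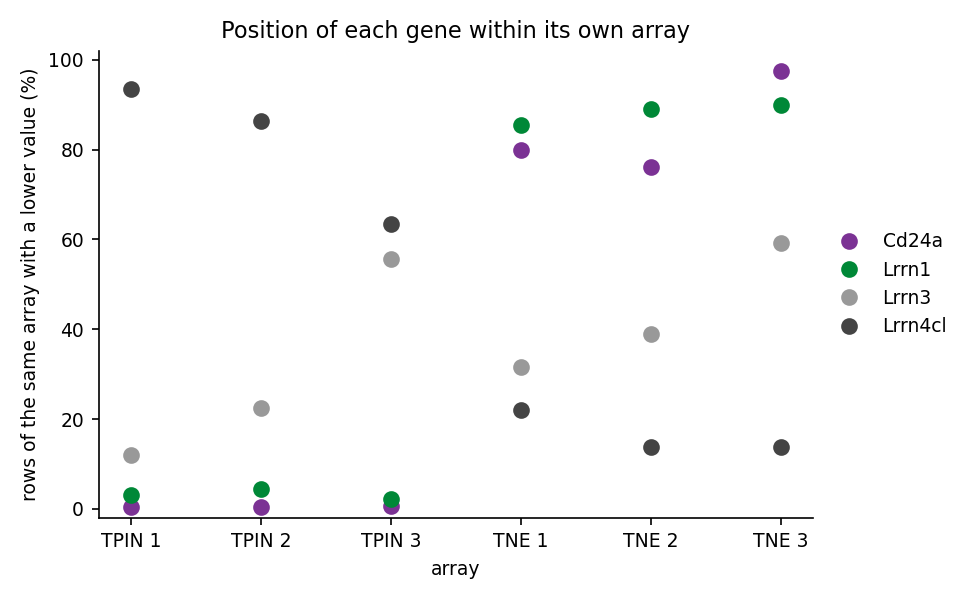
Share of rows of the same array with a lower value (%, vertical axis) for Cd24a, Lrrn1, Lrrn3 and Lrrn4cl on each of the 6 arrays. Cd24a sits below 1% on all TPIN arrays and reaches 97.4% on TNE 3, while Lrrn1 stays between 85.5% and 89.9% on the TNE arrays.

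Cd24a is also abundant on immature blood cells, so markers of leukocytes and red cells were looked at beside it. Of 32 such markers 4 had a row, and the others, Ptprc among them, are not analysed here. Of these 4, 1 rose, none fell and 3 did not pass in limma, a linear model with a shared estimate of variance (none fell at an unadjusted p under 0.05 either). By the same rule 10.3% of all genes rose and 10.2% fell. Tfrc, the transferrin receptor of dividing and red cell precursors, was 2.75 higher in TNE (SE 0.41, adjusted p = 0.00515 in limma). Lyz2, lysozyme of macrophages and granulocytes, had 6.99, 6.11 and 5.73 in TPIN and 5.997, 6.001 and 9.39 in TNE, so it was high on TNE 3 alone. Cd68, a macrophage marker, had 8.56, 7.53 and 9.36 on the TNE arrays and 7.53 to 8.09 in TPIN, and Cd79a, a B cell marker, had 5.43 to 6.20 in TNE and 5.24 to 5.78 in TPIN. The mean of the 4 markers was 6.90 to 7.24 in TPIN and 7.74 to 8.96 in TNE, highest on TNE 3, the array that was also highest for Cd24a. Without TNE 3 the Cd24a difference was 5.82, and the marker mean on TNE 1 and TNE 2, 8.01 and 7.74, was also above TPIN. The higher mean on TNE 1 and TNE 2 came mainly from Tfrc. With TNE 3 left out, Tfrc differed by 3.08, Cd68 by 0.19, Cd79a by 0.18 and Lyz2 by -0.28. The part of blood cells in the Cd24a levels was not tested. More cells of a type and more RNA per cell cannot be told apart in these samples.

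Over the 6 arrays the pattern of each member was compared with that of every other gene by Pearson's r. The arrays fall into 2 groups, so r mainly records the group difference, and it is given as a description. For Cd24a 294 of 9489 genes had r of at least 0.95, and for Lrrn1 379 did. These sets shared 194 genes, 66.0% of the Cd24a set and 51.2% of the Lrrn1 set. Between Cd24a and Lrrn1 r was 0.982, which placed Lrrn1 at rank 47 among the genes most like Cd24a and Cd24a at rank 63 for Lrrn1. Once each group's mean was removed, r between the members was -0.11, so within groups they did not move together.

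The 10 genes most like Cd24a had r between 0.991 and 0.998. In order they were Ate1, an arginyltransferase that marks proteins for degradation, Ranbp17, a nuclear transport receptor, Rev1, a polymerase that copies damaged DNA, D10Wsu102e, Ankrd26, Ung, which removes uracil from DNA, Hmgcll1, Trim37, a ubiquitin ligase, Neurl1b, a ubiquitin ligase for Notch ligands, and Atp8a1, a phospholipid flippase. All 10 were higher on every TNE array than on any TPIN array, as 23.3% of all genes were, by 0.90 to 3.24, against 6.34 for Cd24a. All 10 also had their highest value on TNE 3. With that array left out, 6 of the 10 were among the 50 closest genes. The genes most opposite to Cd24a were Pcolce, an enhancer of procollagen processing, with r of -0.997 and a difference of -4.02, Slc25a36, Blvrb, Dnm1 and Pdia4, the last an enzyme of protein folding in the endoplasmic reticulum.

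The 10 genes most like Lrrn1 had r between 0.994 and 0.998, and only Ranbp17 was also among the 10 for Cd24a. They were Cstf2, a factor of mRNA 3′ end processing, Arfgef3, Tmem186, Qrsl1, a subunit of a mitochondrial amidotransferase that acts on tRNA, Mdm1, Timeless, which stabilises replication forks, Rpa2, a subunit of the protein that coats single-stranded DNA, Zdhhc2, a palmitoyltransferase, Tedc1 and Ranbp17. All 10 were higher on every TNE array than on any TPIN array, as 23.3% of all genes were, by 1.15 to 3.85. Both sets of 10 were picked by r, which mainly records the group difference, so this separation is no finding of its own. TNE 3 was the highest array for 3 of them. Without TPIN 2, 5 of the 10 were among the 50 closest genes, and without TPIN 3, 6 were. The most opposite genes, with r of -0.998 each, were Ereg, a ligand of the EGF receptor, Tbx18, a mesenchymal transcription factor, Lima1, Kcp and Egfr, the EGF receptor itself. Ereg fell by 4.80 and Egfr fell by 4.36 on the log2 scale in TNE.

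**Figure D3:**
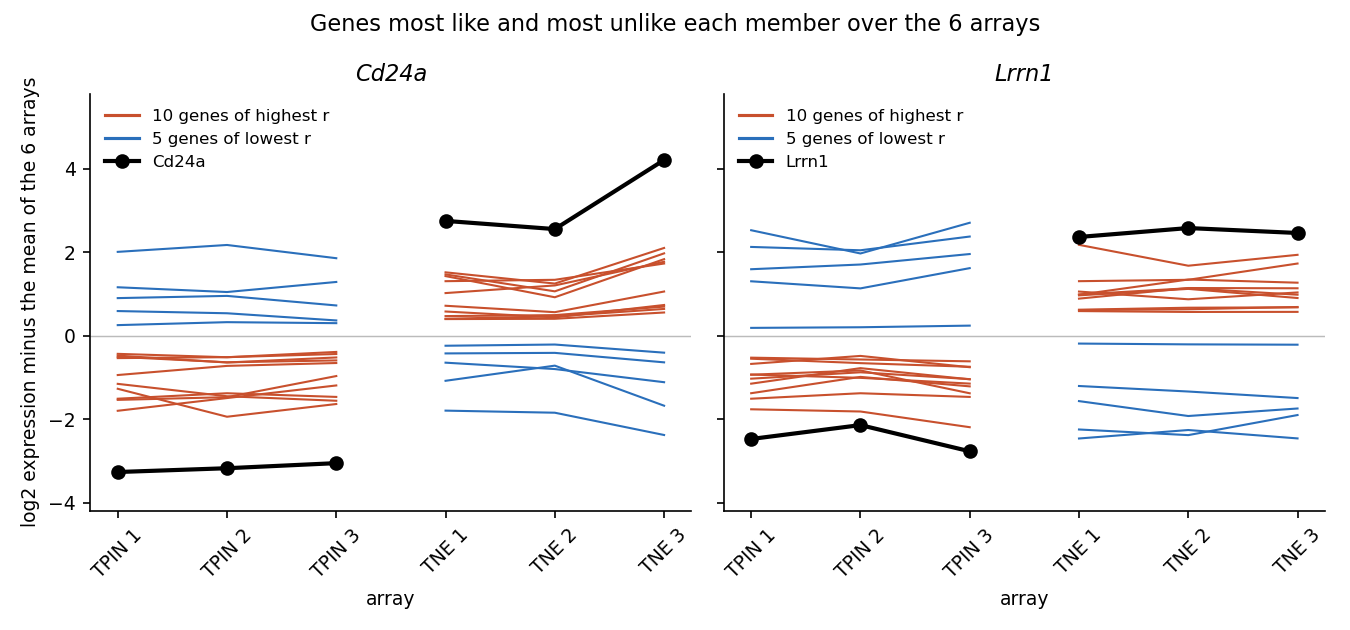
Log2 expression minus the gene's mean over the 6 arrays for Cd24a (left) and Lrrn1 (right) in black, with the 10 genes of highest r in red and the 5 of lowest r in blue; lines join arrays of a group only to follow a gene, since replicates have no order. The black lines lie outside the red ones, as no gene of like pattern differed as much as its member. This follows from choosing the members as the 2 largest differences toward TNE.

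Of the promoters of these genes, 10 of 10 for Cd24a and 9 of 10 for Lrrn1 were in the RefSeq table. The GC box was found in 8 of the 10 and 7 of the 9, and the CCAAT box in 4 and 5. The SOX motif of the Lrrn1 promoter was found in none of the former and 1 of the latter, Mdm1. These sets are small and the genes were picked by likeness, so the counts are a description.

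Likeness in size as well as shape, measured as the root mean square distance between profiles with their overall means removed, picked other genes. Lrrn1 itself was the nearest of all genes to Cd24a, at 0.91 log2 units, followed by Tspan13, Sox11, Mboat2 and Prim1. The members were chosen as the 2 largest differences toward TNE and this distance weighs size. The place of Lrrn1 therefore follows largely from that choice. For Lrrn1 the nearest were Mboat2 at 0.40, Tspan13 at 0.42, Zdhhc2, Prim1 and Sox11. Sox11, a transcription factor of neural progenitors, had 6.35, 6.41 and 5.98 in TPIN and 9.71, 10.02 and 11.49 in TNE. It thus shared with Cd24a the high value on TNE 3, and r between their deviations from the group means was 0.91, against 0.24 between Sox11 and Lrrn1. Tspan13, a tetraspanin, had 7.48, 7.06 and 7.80 in TPIN and 12.03, 12.52 and 12.11 in TNE, with no rise on TNE 3.

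With group means removed, so that only the spread within groups counted, the genes nearest to Cd24a were Neto2, Cdyl2, N4bp2, Mettl24 and Casd1. All 5 were highest within TNE on replicate 3, and their group differences varied. N4bp2 and Casd1 were higher on every TNE array than on any TPIN array. Cdyl2 was lower on every TNE array, with a difference of -1.24, and for Neto2 and Mettl24 the groups overlapped. Neto2 differed by -0.05 between the groups, and Casd1, which adds acetyl groups to sialic acids, by 1 log2 unit. For Lrrn1 the nearest were Tpmt, Olfr316, Sf3a1, Ube2g1 and Eefsec, with group differences between -0.53 and 0.64.

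On the chromosome, 3 genes that follow Cd24a on one side rose with it, whereas none beside Lrrn1 passed. Genes other than the members were tested with limma and called at an adjusted p under 0.05 over all genes. By that rule 10.3% of all genes were higher in TNE and 10.2% lower, 20.5% in all, and 38.9% had an unadjusted p under 0.05. The neighbours were picked after the data were seen, as the nearest 3 protein-coding genes on each side in the RefSeq table. Qrsl1, next to Cd24a, had 7.63, 7.53 and 7.44 in TPIN and 8.81, 8.86 and 8.86 in TNE, a difference of 1.31 (SE 0.24, adjusted p = 0.0105 in limma). It is the same gene that was among the 10 closest to Lrrn1 in pattern. Rtn4ip1, a mitochondrial protein, rose by 0.89 (SE 0.26, adjusted p = 0.0467 in limma), and Crybg1 by 1.76 (SE 0.34, adjusted p = 0.0120 in limma).

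Crybg1 was lowest within TNE on replicate 3, at 7.21 against 8.15 and 8.25, where Cd24a was highest. Qrsl1 and Crybg1 each lost their call without TNE 2, and Rtn4ip1 lost its call without any 1 of the 6 arrays. On the other side Mtres1, the nearest, had a difference of -0.50 (adjusted p = 0.235 in limma), and Bend3 and Pdss2 are not analysed here. Around Lrrn1, Trnt1, an enzyme that completes tRNA ends, differed by 0.70 (adjusted p = 0.0865 in limma), Setmar by 0.33 and Sumf1 by -0.25. Trnt1 passed without TPIN 3. Crbn, Il5ra and Itpr1 are not analysed here.

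**Figure D4:**
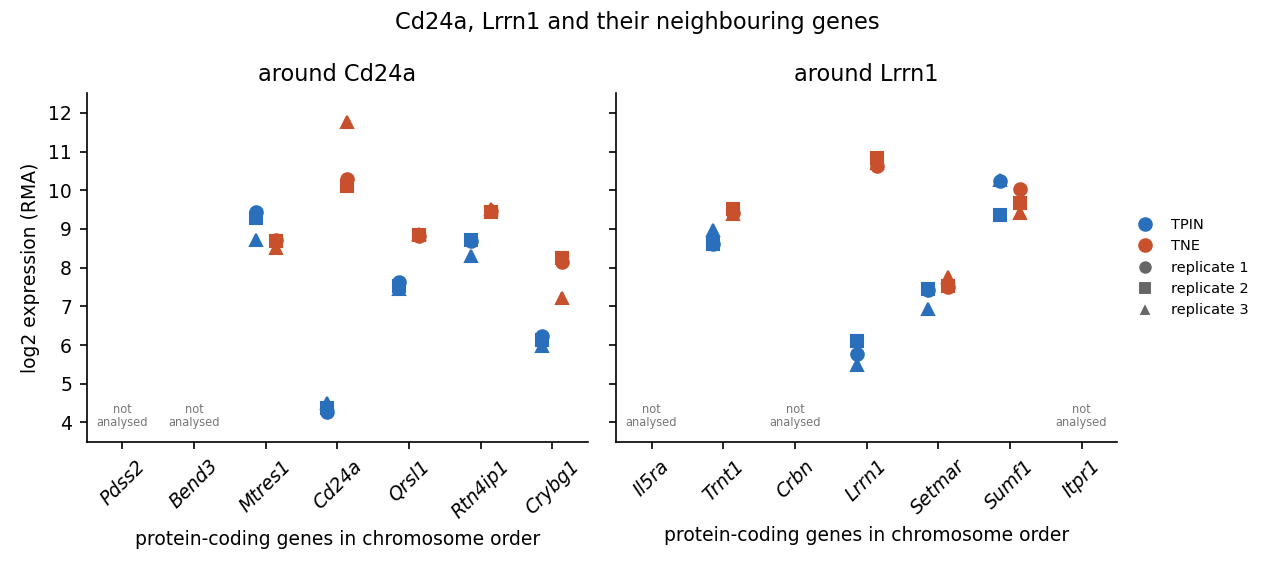
Log2 expression on each array (TPIN blue, TNE red, marker shape for the replicate) of Cd24a and Lrrn1, each with the 3 protein-coding genes on either side in chromosome order, spaced evenly and not by distance. Qrsl1, Rtn4ip1 and Crybg1 lie higher on all TNE arrays beside Cd24a, and beside Lrrn1 Trnt1 lies higher on all TNE arrays without passing the test, while Setmar and Sumf1 lie closer together.

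Among genes for proteins that bind CD24 or act beside it, 18 of 30 listed were measured. Of these 3 rose (16.7%, against 10.3% of all genes), 1 fell (5.56%, against 10.2%) and 14 did not pass. The median difference was -0.63, against -0.02 over all genes. Siglecg, the mouse Siglec receptor for CD24 and like Sele and Cd47 named after its values were seen, had 8.21, 8.20 and 7.45 in TPIN and 7.15, 7.23 and 7.39 in TNE (adjusted p = 0.134 in limma). It passed without TPIN 3. Sele, a selectin, was 0.559 lower (adjusted p = 0.267 in limma). The risers were Hmgb2, a chromatin protein related to the CD24 partner HMGB1, at 8.77 ± 0.68 in TPIN and 11.99 ± 0.34 in TNE (adjusted p = 0.00261 in limma), the chaperone Hsp90aa1 and the sialomucin Podxl. The gene that fell was Lrp1, a receptor for calreticulin and proteases, at 13.04 ± 0.39 in TPIN and 10.18 ± 0.54 in TNE (adjusted p = 0.00303 in limma). Cd47, another signal against engulfment, was 0.71 lower (adjusted p = 0.0858 in limma). The count that rose was 1 without TPIN 1 or TNE 2, and the count that fell was 4 without TPIN 3 and 2 without TNE 1.

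Few genes of the machinery that makes GPI anchors passed at the adjusted threshold, and at an unadjusted p under 0.05 the share was near that of all genes (8 of 23, against 38.9%). Of the 23 measured genes 1 rose (4.35%, against 10.3% of all genes) and none fell (against 10.2%). The riser was Pigf, by 1.14 (SE 0.28, adjusted p = 0.0290 in limma). At an unadjusted p under 0.05 in limma, 5 rose and 3 fell. The median difference was 0.09. Pigw and Piga, which act early in anchor synthesis, were 1.08 and 1.18 higher, and Pigt, part of the enzyme that attaches the anchor, was 1.07 lower, none of which passed. Pgap1, which trims the finished anchor, had 8.97, 10.27 and 11.94 in TNE and 7.47 to 8.58 in TPIN (adjusted p = 0.0635 in limma), and it too was highest on TNE 3. The count that rose was 3 with each array centred on its median or quantile-normalized again. It was 0 without TPIN 1, TPIN 2 or TNE 2, 3 without TPIN 3 and 2 without TNE 3, and 1 gene fell without TPIN 3.

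Other proteins carried on GPI anchors were mostly lower in TNE where they changed, although most did not pass. Of 44 measured genes 13 fell (29.5%, against 10.2% of all genes), 3 rose (6.82%, against 10.3%) and 28 did not pass, and the median difference was -0.69. Raet1d and H60b, ligands of the NKG2D receptor, fell by 5.82 and by 3.30 on the log2 scale, and Gpc4, a glypican, by 4.21. The list and its counts hold H60b, although its protein spans the membrane and has no GPI anchor. Thy1, a marker of fibroblasts and neurons, was 15.3-fold lower, Tfpi, a coagulation inhibitor, 14.9-fold, and Cd59a and Cd55, which protect cells from complement, 8.65-fold and 8.62-fold. Reck, a protease inhibitor, had 10.34 ± 0.07 in TPIN and 7.61 ± 0.53 in TNE, and Sema7a, a semaphorin, 10.65 ± 0.87 and 7.66 ± 0.22. Adjusted p in limma lay between 0.000211 and 0.0111 for these 9 genes, and leaving out any array kept each call. Gpc4, Cd59a and Cd55 were named after their values were seen.

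The GPI-anchored genes that rose were Cdh13 (T-cadherin), by 1.84, the neural adhesion gene Cntn1, by 1.97, and Rtn4rl1, a relative of the Nogo receptor, by 1.12 (adjusted p = 0.0139, 0.0444 and 0.0449 in limma). Cdh13 was lowest within TNE on replicate 3, at 7.99. Only 1 gene rose without TPIN 2, TPIN 3, TNE 2 or TNE 3, while the count that fell stayed between 11 and 14. Fibroblast and smooth muscle markers differed between the same groups, with 18 of 20 measured. In TNE 13 were lower (72.2%, against 10.2% of all genes) and none higher (at an unadjusted p under 0.05 in limma, 15 and none). Their mean was 11.15 to 11.38 in TPIN and 7.84 to 8.34 in TNE, with Dcn, which encodes decorin, still at 10.91 ± 0.24 in TNE. Thy1 is in both lists. The part of fibroblast-like cells in the lower GPI-anchored genes was not tested.

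Enzymes of O-linked and sialylated sugars were called in both directions. The list is not confined to enzymes that act on CD24 or on proteins. Of 41 measured genes 8 fell (19.5%, against 10.2% of all genes) and 29 did not pass. The 4 that rose (9.76%) were near the 10.3% of all genes, and the median difference was -0.07. Gcnt4, which branches O-glycans, fell by 3.68 on the log2 scale. St3gal1, which caps them with sialic acid, was 7.21-fold lower, B4galt5 6.34-fold, B3gnt3 5.75-fold and St6galnac6 2.83-fold, with adjusted p in limma between 0.00235 and 0.0162. B4galt5 lost its call without TPIN 1 or 2. Those that rose, named after their values were seen, were the polysialyltransferase gene St8sia4 (1.62), St3gal5 (1.34), Cmas, which activates sialic acid (1.14), and Galnt3, which starts O-glycans (1.29). Each of them lost its call without at least 2 of the arrays. The count that fell was 4 without TPIN 1 or 2 and 5 without TNE 2 or 3, and the count that rose was 0 without TPIN 2, 1 without TPIN 1 or TNE 2 and 2 without TNE 1.

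The list of Src family kinases and raft scaffolds, through which CD24 signals, also holds Stat3, a transcription factor. Of its 12 measured genes 3 were called, a share near the 20.5% of all genes. Of these 1 rose, Pag1, a raft adaptor for the Src inhibitor Csk, by 1.17 (adjusted p = 0.0272 in limma), and 2 fell, Cavin1, a caveolar coat protein, by 2.16 (adjusted p = 0.0227 in limma), and Stat3 by 1.15 (adjusted p = 0.0456 in limma). The kinase genes Src and Fyn, named after their values were seen, differed by -0.45 and 0.235 and did not pass. Cav1, the caveolin gene, had 11.31, 10.34 and 7.58 in TNE and 11.01 to 11.65 in TPIN, so it was low on TNE 3, where Cd24a was highest. No gene rose without TPIN 1, TPIN 2, TNE 1 or TNE 2. None fell without any 1 of the TPIN arrays or TNE 2, and 1 fell without TNE 3.

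Genes of the Lrrn name group did not share the pattern of Lrrn1. Lrrn3, a close relative with the same domain layout, had 6.97, 7.78 and 9.19 in TPIN and 8.29, 8.54 and 9.18 in TNE, so the groups overlapped (difference 0.69, SE 0.56, adjusted p = 0.383 in limma). Lrrn4cl, a short protein named for its likeness to LRRN4, had 11.42, 10.76 and 9.48 in TPIN and 7.70, 6.93 and 7.02 in TNE, and fell by 3.34 on the log2 scale (SE 0.50, adjusted p = 0.00524 in limma). Lrrn2 and Lrrn4 are not analysed here.

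Leucine-rich repeat proteins of the cell surface were mostly lower in TNE where they changed. Of 40 measured genes other than Lrrn1, 12 fell (30.0%, against 10.2% of all genes), 1 rose (2.50%, against 10.3%) and 27 did not pass. Those that fell include Lrrn4cl, described above, although its protein has no leucine-rich repeats of its own. The median difference was -0.62. Islr, a marker of mesenchymal cells, was 21.5-fold lower, Adgra2, an adhesion receptor of vessels, 7.77-fold, Flrt2, a guidance ligand, 5.48-fold, and Tpbg, the oncofetal antigen 5T4, 4.37-fold, with adjusted p in limma between 0.00115 and 0.0110. The gene that rose, Ntrk2, named as the single riser, which encodes the neurotrophin receptor TrkB, had 6.45, 6.15 and 6.18 in TPIN and 9.14, 7.42 and 8.85 in TNE (difference 2.21, SE 0.45, adjusted p = 0.0151 in limma). Like Lrrn1 it had no overlap between groups, and it kept its call without any array. The count that fell was 7 without TPIN 1 and 6 without TPIN 2, TNE 2 or TNE 3. These arrays are those on which the fibroblast marker mean was 11.15 to 11.38 in TPIN and 7.84 to 8.34 in TNE, and its part in the lower genes was not tested.

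**Figure D5:**
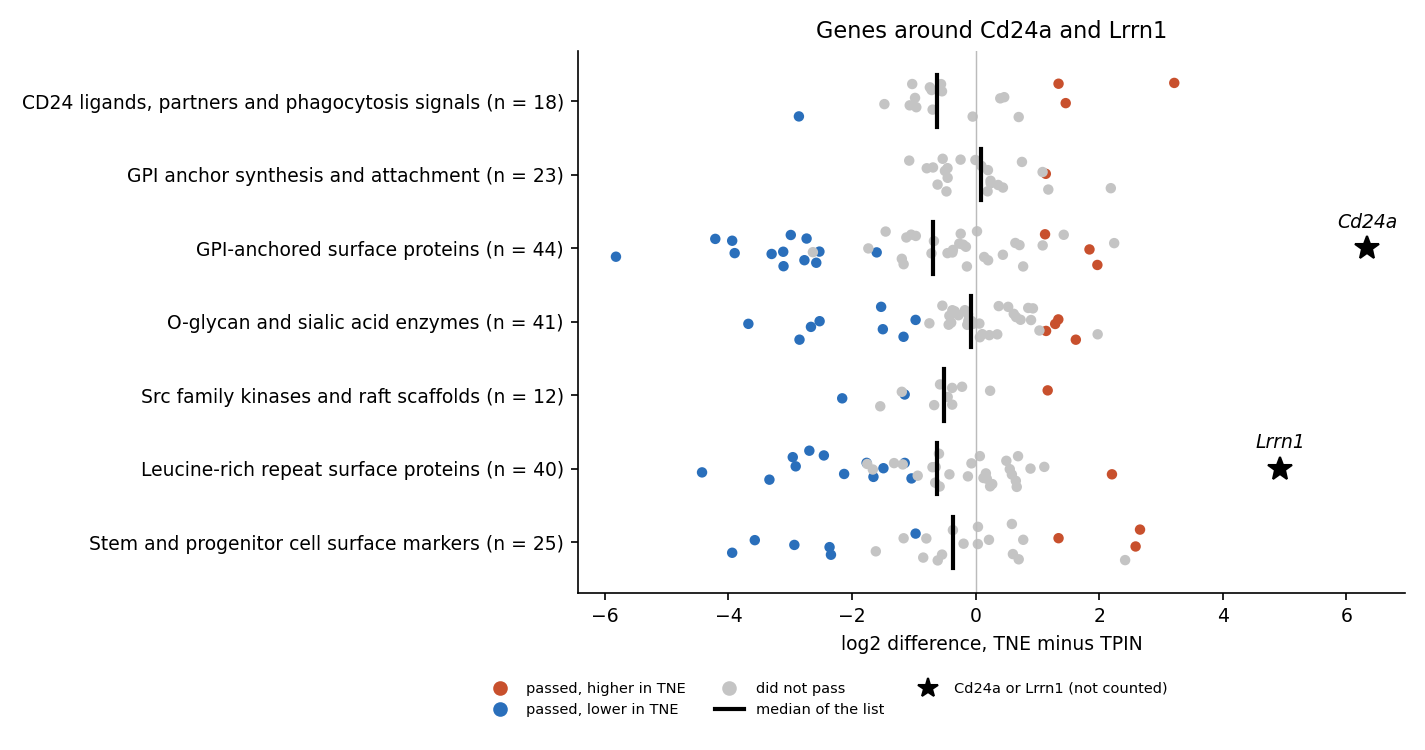
Log2 difference, TNE minus TPIN, of each measured gene in 7 lists around Cd24a and Lrrn1, red and blue where it passed limma at an adjusted p under 0.05, grey where it did not, with a black bar at the list's median; vertical scatter is only for display. Cd24a and Lrrn1 (stars, not counted in the lists) lie at 6.34 and 4.93. No listed gene could lie further right, since they were chosen as the 2 largest differences toward TNE.

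CD24 is often used with other surface proteins to sort stem-like cells, and these did not move with it as a group. Of 25 measured markers 3 rose (12%, near the 10.3% of all genes), 6 fell (24%, against 10.2%) and 16 did not pass. The median difference was -0.37. The chemokine receptor Cxcr4 had 6.76 ± 0.34 in TPIN and 9.42 ± 0.10 in TNE (adjusted p = 0.00154 in limma). Kit, the stem cell factor receptor, named after its values were seen, had 6.79, 6.36 and 6.94 in TPIN and 7.96, 9.37 and 10.53 in TNE (adjusted p = 0.0223 in limma), again highest on TNE 3, and lost its call without TPIN 1, TPIN 2 or TNE 2. Eng, Procr, Itgb3 and Thy1 were 11.9-fold, 5.14-fold, 5.06-fold and 15.3-fold lower. Cd44, often paired with CD24 in such sorts and named after its values were seen, had 9.66, 10.50 and 10.08 in TPIN and 9.90, 8.68 and 6.81 in TNE (adjusted p = 0.134 in limma), lowest on TNE 3. The count that rose was 1 without TPIN 1, TPIN 2 or TNE 2 and 5 without TPIN 3.

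Some markers of other cell kinds also differed between the groups. The shares to set beside the counts are the 10.3% of all genes that rose and the 10.2% that fell. Of 16 measured neuroendocrine and neuronal markers 5 rose, none fell and 11 did not pass (10 and 1 at an unadjusted p under 0.05 in limma), with list means of 6.95 to 7.47 in TPIN and 7.94 to 9.24 in TNE. Without TPIN 2 the number that rose was 2, without TPIN 1 or 3 it was 3, and without TNE 1 it was 8. Uchl1, a neuronal ubiquitin hydrolase, was 2.67 higher (adjusted p = 0.00464 in limma). Of 9 epithelial markers 1 rose and 2 fell, with list means of 8.10 to 8.55 and 7.43 to 7.71. Acpp, prostatic acid phosphatase, fell by 5.60 on the log2 scale (adjusted p = 0.000211 in limma), while Epcam and Cdh1 are not analysed here. Fkbp5 was the epithelial gene that rose, and no epithelial gene rose without TPIN 1 or TNE 2. Of 6 endothelial markers 1 rose and 3 fell, the latter 1 without TPIN 2, TPIN 3 or TNE 2 and 2 without any other array, with list means of 8.46 to 8.86 and 6.89 to 7.97. Of 33 cell cycle genes 23 rose and none fell (28 and none at an unadjusted p under 0.05 in limma), with list means of 7.99 to 9.89 in TPIN and 10.82 to 11.16 in TNE. That count was 14 without TPIN 1 and 12 without TNE 2. The part of any of these in the Cd24a and Lrrn1 levels was not tested.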

How the data were processed

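RNA of 6 samples was measured on single-colour Affymetrix arrays, 1 per sample. The deposited log2 expression values come from RMA, per the submitters' processing notes. The version of RMA and the rule by which the authors kept these 10361 rows are in none of the sources used here. Array medians were 8.82 to 9.10, and precision is limited by having 3 arrays a group. In the platform annotation 9496 rows carried 1 symbol, 374 carried several and 491 carried none. The row with the highest mean was kept per symbol, which left 9490 genes. Groups came from the titles, and replicates were numbered in series order and are not paired. The contrast TNE minus TPIN was fitted with limma 3.58.1 (R 4.3.3), two-sided, at a Benjamini-Hochberg adjusted p under 0.05 over all genes, and was tested on simulated data. Likeness was computed in Python 3.11.15.

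Cd24a and Lrrn1 and all lists were chosen with earlier results of these data known. Genes named were by rule the 10 genes with the highest and the 5 with the lowest r to each member, leaving out predicted genes and RIKEN clones, the 5 nearest by each distance, Lrrn genes, the 5 of smallest p and the largest difference in each list, and 3 of smallest p and 3 of highest mean in marker lists, given here in part. Other list genes, among them Cdh13, Cntn1, Rtn4rl1 and Ntrk2, as well as the chromosome neighbours and the motifs, were named after their values were seen. Alternatives were array scalings, a filter on dim rows, the variance prior, group medians, the measure of likeness and leaving out each array.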

Additional observations from a re-analysis of the deposited data

How the results depend on the processing

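The differences of Cd24a and Lrrn1 kept their direction and moved by less than the larger of the gene's group SDs (0.90 in TNE for Cd24a, 0.31 in TPIN for Lrrn1) under both other scalings, group medians (5.93 and 4.94) and each left-out array. Some of these moves exceeded the smaller group SD of 0.11 that each gene had. Without 1 array they ranged from 5.82 to 6.65 and from 4.78 to 5.09. The number of the 10 closest genes among the 50 closest ranged from 6 to 10 for Cd24a and from 5 to 10 for Lrrn1 without 1 array. By root mean square distance it was 3 and 2, since that measure also weighs size. The counts of list genes called were less stable. With each array centred on its median, or quantile-normalized again, 3 GPI anchor synthesis genes rose, against 1. With the lowest 25% of genes by mean left out, fewer genes were tested, and the counts that rose were 1 of the GPI-anchored genes, 2 of the glycan enzymes and 0 of the raft genes, leucine-rich repeat genes and stem cell markers. Without 1 array, the counts that rose and fell ranged from 1 to 4 and 1 to 4 for CD24 partners, 0 to 3 and 0 to 1 for anchor synthesis, 1 to 4 and 11 to 14 for GPI-anchored genes, 0 to 3 and 4 to 7 for glycan enzymes, 0 to 1 and 0 to 2 for raft genes, 1 to 1 and 6 to 13 for leucine-rich repeat genes, and 1 to 5 and 4 to 6 for stem cell markers. The cause of these moves was not tested. Of 68 genes of the lists and neighbours, 47 kept their side of the threshold under all alternatives run, 16 lost a call under at least 1, 5 gained one, and none reversed. No paired analysis was possible because the labels give no replicate numbers that the groups share.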

Other observations

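TNE replicate 3 set itself apart in several genes linked to Cd24a by the lists or by pattern, which was noticed after the values were seen. On that array Cd24a (11.76), Sox11 (11.49), Kit (10.53), Pgap1 (11.94), St8sia4 (8.32), Lyz2 (9.39) and Cd68 (9.36) were at the highest of their 6 values, and Cav1 (7.58) and Cd44 (6.81) were at their lowest. Lrrn1, at 10.71, lay between the other TNE arrays. A lead of at least 1 log2 unit of TNE replicate 3 over both other TNE arrays was held by 366 of the 9490 genes. That is a stricter measure than being highest, and Cd68, at 9.36 against 8.56 on TNE 1, did not reach it. The share of all genes that were highest or lowest on TNE 3 was not counted.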
